A study of Rattus norvegicus with 11 samples.

Results

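The genes described here encode the proteasome and its assembly factors. They were chosen by name: every gene whose symbol starts with Psma, Psmb, Psmc, Psmd, Psme, Psmf or Psmg followed by a digit, together with Pomp and the Pomp-like LOC100911238. This gave 51 of the 32623 genes in the deposited table, and 5 of them (Psmb8, Psmb9, Psmb10, Psme1 and Psme2) make up the immunoproteasome group. One gene taken in by the name rule, Psmc3ip, is known for meiotic recombination and is not a proteasome subunit. RNA was sequenced from white blood cells (WBCs) of male Wistar rats with collagen-induced arthritis (CIA), a model of rheumatoid arthritis, and of normal healthy controls. CIA was induced with bovine type II collagen in incomplete Freund's adjuvant (IFA-CII) in rats of 7 weeks of age, with a boost injection on day 7. Blood of 4 CIA rats was drawn once under the status Nampt++, near day 8, and again under the status Nampt+, near day 14, and 3 healthy rats without CIA served as controls. The authors assigned the status from their own PCR of Nampt, the gene of the rate-limiting enzyme of NAD salvage. The day of sampling and the Nampt status cannot be told apart.

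The 11 libraries held between 65340027 and 85819418 counts. Their haemoglobin share, over 10 genes, was 15.2% to 28.8% in controls, 6.43% to 34.9% in Nampt++ and 13.9% to 39.8% in Nampt+ samples, so red cell transcripts were present in all of them after lysis. The Nampt+ sample of rat 2 stood apart with the highest haemoglobin share, 39.8%. It had the lowest deposited FPKM in 42 of the 49 proteasome genes measured above 0, a count not made over all genes. That low level was not seen on TMM-scaled log2 CPM relative to the control mean. There the median of the 49 genes was 0.05 in this sample and -0.06, -0.08 and -0.13 in the other Nampt+ samples (rats 1, 3 and 4). The extraction protocol in the labels speaks of retinas, while the sample source and the study's methods speak of WBCs. Of 7 retina markers, none reached a mean FPKM of 1 and 3 were listed at 0 in every sample, while all 9 T cell markers and 10 of 12 neutrophil markers exceeded 1. Nampt itself did not follow the labels in every library. Its FPKM was 20.3, 32.9 and 13.5 in controls, 46.5, 10.1, 36.1 and 30.6 in samples labelled Nampt++ (rats 1 to 4), and 11.4, 14.3, 27.5 and 36.9 in those labelled Nampt+. The library labelled Nampt++ of rat 2 lay below all controls, the library labelled Nampt+ of rat 4 lay above all controls, and the difference between the CIA groups was a log2 fold change of -0.38 (SE 0.43, adjusted p = 0.9996 after Benjamini-Hochberg, by the quasi-likelihood test of edgeR). Nampt++ and Nampt+ are therefore used below as the names of labelled libraries, and results between them are also given without these 2 libraries.

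The proteasome degrades proteins that carry ubiquitin chains. Its barrel-shaped 20S core is built of alpha rings, which guard the entry, and beta rings, which hold the proteolytic sites in Psmb5, Psmb6 and Psmb7. The 19S cap recognises and unfolds substrates, with a ring of ATPases (Psmc genes) and non-ATPase subunits (Psmd genes). In leukocytes, and more so after interferon-gamma, Psmb8, Psmb9 and Psmb10 take the places of Psmb5, Psmb6 and Psmb7 to form the immunoproteasome, which is known for making peptides for MHC class I. Psme1 and Psme2 form the PA28 cap that favours it. Assembly of the core needs the chaperones Psmg1 to Psmg4 and Pomp, the maturation factor that brings the incomplete rings together.

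Promoter sequences are shown for Pomp, on which the comparisons below turn, for the 3 inducible catalytic subunits and Psme2, and for Psmb5 as a constitutive counterpart. They are RefSeq sequences of the GRCr8 assembly, read 5' to 3' on the gene's strand from 170 bases before to 30 bases after the start site. Capitals mark a pattern like the interferon-stimulated response element (ISRE), which is GAAA, any 2 bases and GAAA again, on either strand.
Pomp, chr12:12210808-12211007, minus strand: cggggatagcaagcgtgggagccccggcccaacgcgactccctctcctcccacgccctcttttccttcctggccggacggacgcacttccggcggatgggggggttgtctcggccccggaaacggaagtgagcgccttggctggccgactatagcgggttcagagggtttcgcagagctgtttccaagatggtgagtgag
Psmb8, chr20:4657002-4657201, minus strand: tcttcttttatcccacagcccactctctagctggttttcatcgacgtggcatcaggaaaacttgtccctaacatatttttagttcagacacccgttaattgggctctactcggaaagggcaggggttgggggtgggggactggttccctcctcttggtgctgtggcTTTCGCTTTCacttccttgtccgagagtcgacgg
Psmb9, chr20:4668830-4669029, plus strand: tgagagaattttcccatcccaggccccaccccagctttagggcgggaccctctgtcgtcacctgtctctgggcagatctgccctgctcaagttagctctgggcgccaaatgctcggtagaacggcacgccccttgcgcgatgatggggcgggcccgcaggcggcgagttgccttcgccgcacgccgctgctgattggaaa
Psmb10, chr19:50743263-50743462, minus strand: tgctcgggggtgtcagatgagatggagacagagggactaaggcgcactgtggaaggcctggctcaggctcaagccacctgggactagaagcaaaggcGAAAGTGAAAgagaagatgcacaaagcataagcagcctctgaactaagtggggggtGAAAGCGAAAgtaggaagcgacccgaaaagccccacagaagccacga
Psme2, chr15:33052722-33052921, minus strand: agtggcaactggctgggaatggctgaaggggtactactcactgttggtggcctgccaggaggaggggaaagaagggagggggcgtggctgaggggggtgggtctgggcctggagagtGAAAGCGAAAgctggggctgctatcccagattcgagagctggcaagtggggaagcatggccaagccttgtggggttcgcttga
Psmb5, chr15:32047350-32047549, minus strand: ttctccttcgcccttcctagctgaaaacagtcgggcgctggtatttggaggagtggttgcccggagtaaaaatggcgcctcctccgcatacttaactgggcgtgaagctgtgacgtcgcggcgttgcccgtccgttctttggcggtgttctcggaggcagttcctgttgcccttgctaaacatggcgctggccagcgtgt
Psmb10 held the pattern in 2 places, Psmb8 and Psme2 in 1 each, and these 3 were the immunoproteasome genes, of 5, that held it. Over windows of 300 bases (250 before to 50 after the start site) the pattern stood in 7 of the 45 proteasome promoters found in the table and in 3.77% of all 27457 promoters. The other carriers were Psma4, Psmb3, Psmd7 and Psmg4. Both strands were also searched for other letters. TGACNNNGC, part of the antioxidant response element, stood in 8 of the 45 (12.2% of all promoters), TTCNNNGAA, the core of the gamma-activated site, in 4 (8.68%), and CCAAT in 22 (37.7%). In Psmb2 a TGACNNNGC match and a CCAAT match shared bases. A match describes letters in a window and not a bound site. Psmd14, Psmd12, LOC100911238, Psma7, Psmb11 and Psmd6 had no entry in the promoter table.

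Most of these genes were well expressed. FPKM scales reads by gene length and sample total, so levels can be compared between genes as far as the lengths used are right. Of the 51, 43 had a mean FPKM of at least 10 over all samples. The median of the 49 genes with a mean of at least 1 was 38.5 FPKM, against 8.10 over the 11242 such genes of the table. The remaining 2, Psma8 (the testis-specific alpha subunit) and Psmb11 (the thymus-specific beta subunit), were listed at 0 counts in all 11 libraries. The proteasome genes summed to between 1447 FPKM (Nampt+ of rat 2) and 2997 FPKM (control 3). As a share of counts outside haemoglobin they made up 0.417% ± 0.0540 in controls (SD, n = 3), 0.429% ± 0.0195 in Nampt++ (n = 4) and 0.388% ± 0.0496 in Nampt+ samples (n = 4), and the groups overlapped.

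**Figure D1:**
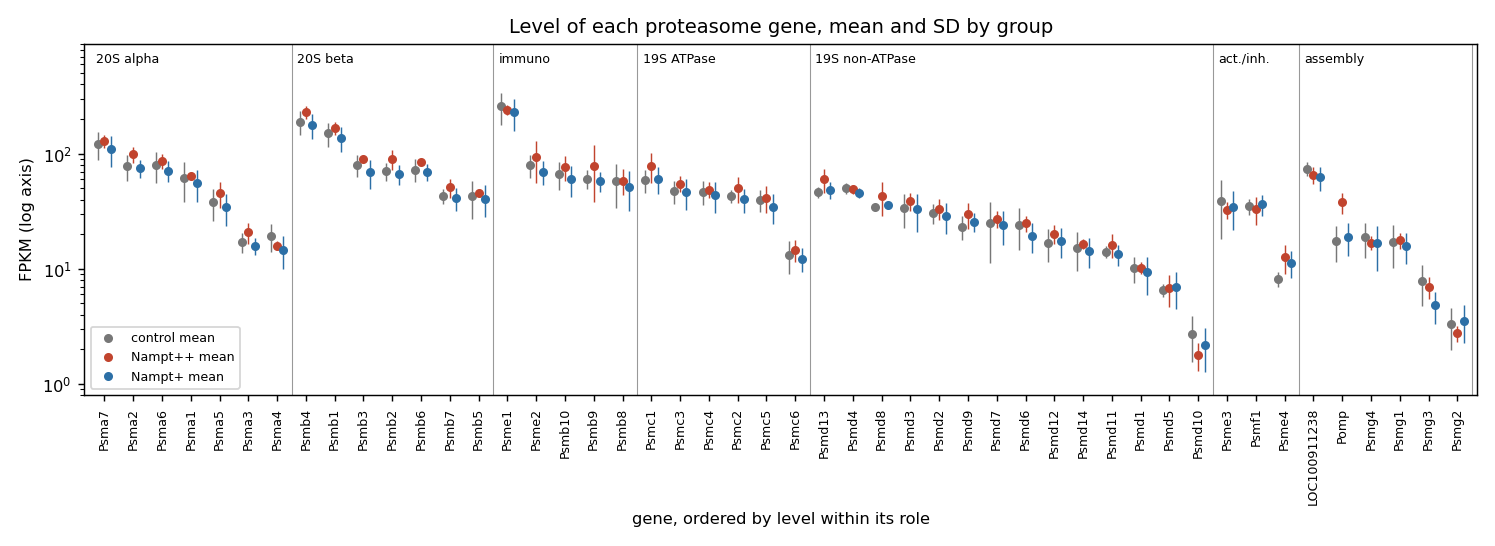
Mean FPKM (log axis) of 48 proteasome genes, ordered by level within each role; points are group means (3 controls, 4 Nampt++, 4 Nampt+) and bars are SD. Psme1 and Psmb4 stand highest at 242 and 200 FPKM over all samples, and the groups lie close together for nearly all genes except Pomp.

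Levels differed widely between subunits that occur in equal numbers in the particle. Among the alpha subunits Psma7 was highest with 120 FPKM over all samples, 7.35 times Psma4, the lowest at 16.3. Psma4 was not the lowest in reads. In control 1 it had 5487 counts, against 8119 for Psma7 and 2511 for Psma5, which had 33.5 FPKM there. Its place thus depends on the gene lengths behind the deposited FPKM, which were not checked. Among the constitutive beta subunits Psmb4, which has no catalytic site, was highest with 200 and the chymotrypsin-like catalytic subunit Psmb5 lowest with 43.0. The ATPases ranged from 66.6 (Psmc1) to 13.4 (Psmc6). The non-ATPase genes had the widest range, 23.9-fold, from 52.2 for Psmd13, a lid subunit, to 2.19 for Psmd10, an assembly chaperone of the cap also known as gankyrin. In the immunoproteasome group Psme1 reached 242 and Psmb8, the lowest, 55.6. Psme3 (34.8) and Psme4 (10.9) are the genes of the nuclear activators PA28-gamma and PA200. Psmg2 had 3.19 FPKM, the lowest of the assembly factors, and Psmc3ip 1.902.

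Group differences were tested on counts, for pairs of groups, with edgeR's quasi-likelihood test. A gene was counted as past the thresholds at a ratio of mean FPKMs over 2 or under 0.5 with an unadjusted p under 0.05, the thresholds the study used. Between Nampt+ and Nampt++ samples 1 of the 49 tested members passed them, Pomp, which was lower in Nampt+, and 0 were higher, where 0.33% of all 11219 tested genes were lower and 0.312% higher past the thresholds, 0.642% in all. Between Nampt++ samples and controls 1 of 49 passed, again Pomp, which was higher in Nampt++, and 0 were lower (0.33% of 11219 genes higher and 0.357% lower, 0.686% in all). Between Nampt+ samples and controls 0 of 49 passed (0.213% of 11269 genes higher and 0.284% lower, 0.497% in all). Upper quartile scaling moved the split of all genes between Nampt++ samples and controls from 37 higher and 40 lower to 31 higher and 53 lower. After Benjamini-Hochberg adjustment over all tested genes edgeR called 0 members and 0% of all genes in each comparison. At an unadjusted p under 0.05 there were 3 members lower and 0 higher in Nampt+ against Nampt++ samples (0.936% of all genes lower and 1.35% higher, 2.28% in all). With the rat as a replicate block there was 1 member, and 166 of all 11219 genes in place of 256. Without a block there was 1 member higher and 0 lower in Nampt++ samples against controls (0.669% higher and 0.9% lower, 1.57% in all). In Nampt+ samples against controls 1 was lower and 0 were higher (0.515% lower and 0.355% higher, 0.87% in all). DESeq2 gave an adjusted p under 0.05 to 1 member, Pomp, in Nampt++ samples against controls (adjusted p = 0.016), and to 5 of all 11219 genes. In Nampt+ against Nampt++ samples it did so for 0 members and 5 of 11219 genes. In Nampt+ samples against controls these were 0 members and 4 of 11269 genes. The comparisons share samples, Nampt++ in the first pair of them and controls in the last, so their values are not independent. Against controls the p-values measure the spread between rats. In Nampt+ against Nampt++ samples each rat gave a library to both groups, and without the block these were treated as independent. Those p-values measure the spread between libraries.

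**Figure D2:**
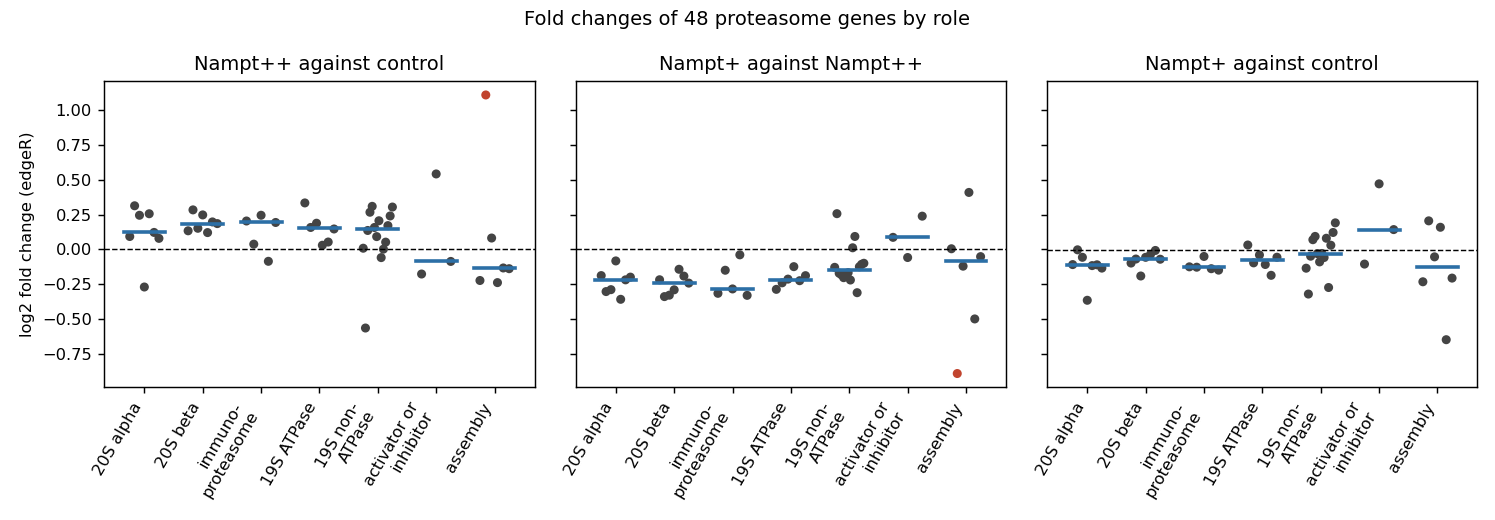
Log2 fold change (edgeR) of 48 proteasome genes by role in the 3 comparisons; each point is a gene, red points are past the thresholds, blue bars are role medians and the dashed line is the median of all tested genes. Pomp is the red point in the assembly group, at 1.11 in Nampt++ samples against controls and -0.89 in Nampt+ against Nampt++ samples.

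Most differences were small and leaned one way. Comparing Nampt+ with Nampt++ samples, 41 of 49 members had a log2 fold change below 0 and 8 above, against 50% of all tested genes, with a median of -0.19 and a median SE of 0.16, and the median of all genes was 0.00. Comparing Nampt++ samples with controls, 38 of 49 lay above 0 (50.4% of all genes) and 11 below (49.6%) with a median of 0.14. After upper quartile scaling that count was 32 and that median 0.07, where the median of all genes was -0.07 in place of 0.00. The members' median was 0.08 without control 1 and 0.09 without Nampt++ of rat 1. Comparing Nampt+ samples with controls, 38 of 49 lay below 0 (50.7% of all genes) and 11 above (49.3%) with a median of -0.07, which was -0.12 without Nampt+ of rat 2 and -0.03 without Nampt+ of rat 4. The members of a complex share their samples and are not independent of each other, and no test was made of these counts. Leaving out the libraries labelled Nampt++ of rat 2 and Nampt+ of rat 4 gave a median of -0.17 for Nampt+ against Nampt++ samples, with 40 of 49 below 0. In bulk RNA fewer cells of a type and less RNA per cell cannot be told apart, for these and the following differences.

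Compared by rat, with the number in the labels taken as the rat, 11 of 49 members were lower in the Nampt+ than in the Nampt++ sample of all 4 rats on TMM-scaled log2 CPM (3.31% of 11242 genes), and 0 were higher in all 4 (4.52%). These were Pomp, the chaperone gene Psmg3, the alpha subunits Psma5, Psma6 and Psma7, the beta subunits Psmb1, Psmb3, Psmb4 and Psmb6, and the cap subunits Psmd2 and Psmd6. Of the remainder, 26 were lower in 3 rats, 7 in 2 and 5 in 1. Without rat 2 the members lower in all remaining rats numbered 23 (15.7% of all genes), and without rat 4 they numbered 14 (6.06%). The median difference of the 49 members was -0.27 in rat 1, -0.08 in rat 2, -0.21 in rat 3 and -0.23 in rat 4, so rat 2 showed the least.

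**Figure D3:**
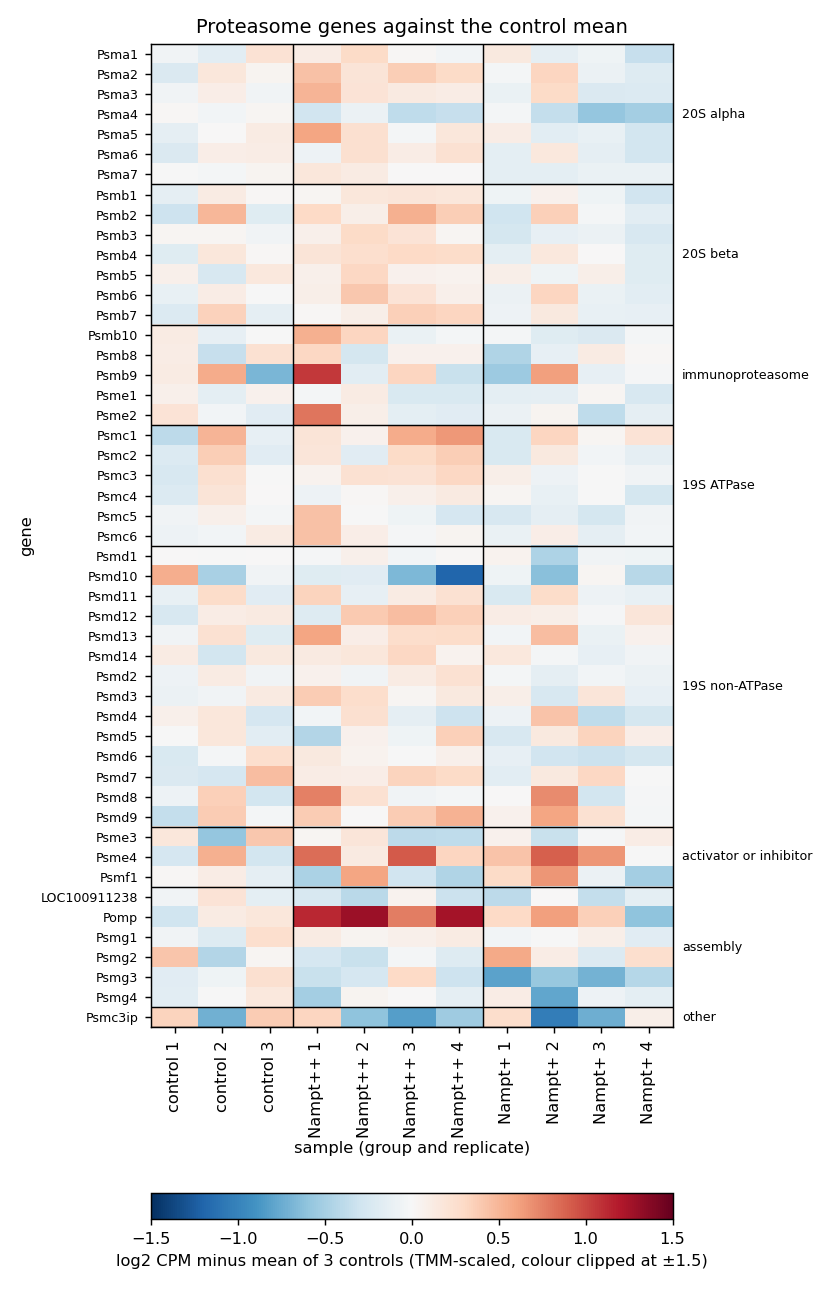
Log2 CPM (TMM-scaled) of 49 proteasome genes minus the mean of the 3 controls, by sample; red is higher and blue lower than the control mean, with colours ending at 1.5 in either direction. Pomp is above the control mean in all 4 Nampt++ samples, Psmb9 is highest in Nampt++ of rat 1, and most 20S genes are paler or bluer in Nampt+ than in Nampt++ samples.

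Pomp (chr12:8746855-8759599, minus strand, as the deposited table lists it, on a build not given in the sources used here) had 13.6, 14.4 and 24.4 FPKM in controls, 40.3, 36.1, 28.0 and 47.2 in Nampt++ samples, and 21.98, 15.001, 25.7 and 12.9 in Nampt+ samples, for rats 1 to 4. All 4 Nampt++ samples lay above all controls and above all Nampt+ samples, while Nampt+ samples and controls overlapped. Nampt++ samples lay wholly above controls for 0.633% of all genes and wholly below for 0.463%, and Nampt+ samples lay wholly below Nampt++ samples for 0.321% and wholly above for 0.0891%. Nampt+ samples lay wholly above or below controls for 0.16% and 0.284% of genes and for 0 members. The means were 17.5 ± 6.003 in controls (SD, n = 3), 37.9 ± 8.05 in Nampt++ (n = 4) and 18.9 ± 5.98 in Nampt+ samples (n = 4). The log2 fold change was 1.11 (SE 0.21) in Nampt++ samples against controls, with an unadjusted p of 0.000759 and an adjusted p of 0.9999 by edgeR's quasi-likelihood test. Nampt+ against Nampt++ samples gave -0.89 (SE 0.26, unadjusted p = 0.00721, adjusted p = 0.9996, edgeR's quasi-likelihood test), with a ratio of mean FPKMs of 0.499, next to the threshold of 0.5. Nampt+ samples against controls gave 0.20 (SE 0.30, unadjusted p = 0.52, edgeR). Within rats the difference on the log2 CPM scale was -0.84, -0.67, -0.42 and -1.85 for rats 1 to 4, lower in 4 of 4 rats. Without the Nampt+ library of rat 4 the log2 fold change was -0.70, and without it and the Nampt++ library of rat 2 it was -0.63 (unadjusted p = 0.0173, edgeR), which is no longer past the thresholds.

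The deposited table describes a further gene, LOC100911238, as proteasome maturation protein-like, at chr12:8976585-8989214 on the plus strand, 216985 bases away in the table. It is called the copy of Pomp here, though the 2 sequences were not compared. The counting method is not given in the sources used here, and any reads that both genes share could have been split between them in either way. The copy was listed higher than Pomp in every sample, at 71.0, 66.3 and 85.4 FPKM in controls, 68.2, 49.0, 74.7 and 69.3 in Nampt++ and 59.8, 42.9, 69.0 and 77.3 in Nampt+ samples. Its groups overlapped in all 3 comparisons. The sum of both was 91.7 ± 15.8 FPKM in controls (SD, n = 3), 103 ± 13.3 in Nampt++ (n = 4) and 81.2 ± 16.4 in Nampt+ samples (n = 4), again with overlapping groups. When the 2 genes were counted as 1, edgeR's log2 fold change was -0.30 in Nampt+ against Nampt++ samples (SE 0.14, unadjusted p = 0.0563) and 0.18 in Nampt++ samples against controls (SE 0.15, unadjusted p = 0.248), and 0 members passed the thresholds.

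The division of reads between the 2 genes does not depend on how samples are scaled. In controls 18.7%, 20.6% and 25.5% of their reads were on Pomp (95% Wilson intervals 17.5 to 19.96, 19.4 to 21.8 and 24.4 to 26.6). In Nampt++ samples the shares were 41.4%, 46.8%, 30.9% and 44.9% (40.1 to 42.7, 45.4 to 48.3, 29.7 to 32.1 and 43.5 to 46.3). In Nampt+ samples they were 30.5%, 29.5%, 30.8% and 16.6% (29.0 to 32.03, 27.8 to 31.2, 29.5 to 32.1 and 15.5 to 17.8). The intervals cover counting error only, and they show that the spread between rats exceeded it. The lowest Nampt++ share, 30.9% in rat 3, was level with the highest Nampt+ share, 30.8% in the same rat, within their intervals. The mean share was 14.1 percentage points lower in Nampt+ than in Nampt++ samples and 19.4 points higher in Nampt++ samples than in controls.

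Exact two-sided permutation tests over samples were run for Pomp, the copy, their sum and the share, 12 tests in all, for which the smallest possible p was 0.0286. For Pomp on log2(FPKM + 1) the difference was -0.99 in Nampt+ against Nampt++ samples and 1.10 in Nampt++ samples against controls, each with an exact permutation p of 0.0286, or 0.114 after Benjamini-Hochberg adjustment. For the copy the differences were -0.08 and -0.19 (exact permutation p = 0.657 and 0.457). For the sum they were -0.36 and 0.17 (exact permutation p = 0.0857 and 0.314). The share gave an exact permutation p of 0.0286 and 0.0571, or 0.114 and 0.171 after adjustment. No test passed 0.05 after adjustment over the 12. Pomp was named with earlier results of these data known, and adjustment over 12 tests does not cover that choice. Its groups did not overlap and its p-values stood at the smallest possible, so they are not separate evidence of a difference. These tests treat all samples as exchangeable and leave out that Nampt+ and Nampt++ samples came from the same rats. With labels exchanged within rats only, Pomp, the sum and the share were each lower in Nampt+ in 4 of 4 rats, with an exact permutation p of 0.125, which is the smallest that 4 pairs can give, and the copy was lower in 3 of 4 (exact permutation p = 0.375).

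**Figure D4:**
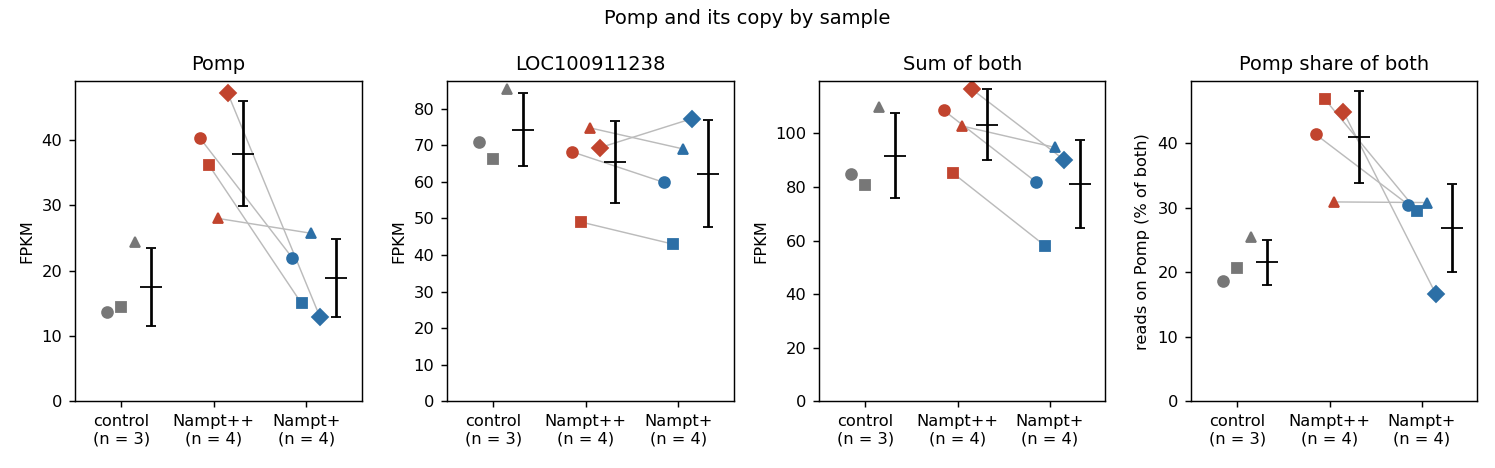
FPKM of Pomp, of LOC100911238 and of their sum, and the share of both genes' reads on Pomp (%), by group; points are samples (circle, square, triangle and diamond are replicates 1 to 4), grey lines join samples of the same rat, and black bars are the mean and SD. Pomp at 28.0 to 47.2 FPKM in Nampt++ samples lies above both other groups, while the copy and the sum overlap between groups.

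None of the other assembly factors passed the thresholds. Psmg3, which pairs with Psmg4 early in the building of the alpha ring, had 6.59, 5.53 and 11.3 FPKM in controls, 6.43, 5.47, 8.93 and 7.07 in Nampt++ and 4.50, 2.90, 5.43 and 6.397 in Nampt+ samples. On FPKM its Nampt+ values were mostly low but overlapped with both other groups. On TMM-scaled log2 CPM relative to the control mean, its Nampt+ samples were at -0.81, -0.57, -0.71 and -0.43, wholly below the Nampt++ samples (-0.33 to 0.30) and the controls (-0.17 to 0.24). Its log2 fold change was -0.65 in Nampt+ samples against controls (SE 0.23, unadjusted p = 0.024) and -0.50 in Nampt+ against Nampt++ samples (SE 0.23, unadjusted p = 0.0548), neither of which passed the adjustment (edgeR's quasi-likelihood test). Psmg2, the partner of Psmg1, had the highest log2 fold change of any member in Nampt+ against Nampt++ samples, 0.41 (SE 0.23), and was higher in 3 of 4 rats. Psmg1 and Psmg4 lay between -0.21 and 0.08 in all comparisons.

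The 20S core genes differed by small amounts in one direction. All 7 tested alpha genes had log2 fold changes below 0 in Nampt+ against Nampt++ samples, from -0.36 (Psma5) to -0.08 (Psma4), and so did all 7 tested constitutive beta genes, from -0.34 (Psmb2) to -0.14 (Psmb5). Psmb3, a structural beta subunit, was the member of this group with an unadjusted p under 0.05. It had 80.2, 62.5 and 96.9 FPKM in controls, 90.3, 84.0, 88.1 and 94.5 in Nampt++ and 69.3, 41.8, 88.3 and 77.4 in Nampt+ samples. On FPKM the Nampt+ sample of rat 3 lay within the Nampt++ range and the other 3 lay below it, with a log2 fold change of -0.33 (SE 0.13, unadjusted p = 0.0297, adjusted p = 0.9996, edgeR). Its unadjusted p was 0.0793 with the rat as a replicate block and 0.149 without the libraries labelled Nampt++ of rat 2 and Nampt+ of rat 4 (edgeR). Psmb6, the caspase-like catalytic subunit, had 83.3, 83.7, 80.2 and 88.7 FPKM in Nampt++ and 71.8, 52.2, 79.7 and 74.4 in Nampt+ samples. These ranges did not overlap, though 79.7 and 80.2 nearly met, and its log2 fold change was -0.19 (SE 0.16, unadjusted p = 0.259, edgeR). It was -0.32 without Nampt+ of rat 2, -0.11 without the library labelled Nampt++ of rat 2, and -0.06 without that library and the one labelled Nampt+ of rat 4. On FPKM as deposited, Pomp and Psmb6 were the 2 members whose Nampt+ and Nampt++ samples did not overlap. On TMM-scaled log2 CPM, Psmb6 overlapped, and Nampt+ samples lay wholly below Nampt++ samples for 6 members (0.898% of 11242 genes) and wholly above for 0 (0.978%). These 6 were Pomp, Psmg3, Psma7, Psmb3, Psmb4 and Psmd6, and so the overlap of all but Pomp depended on the scaling.

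Against controls the core genes were closer to 0. Among Nampt++ samples all 7 beta genes lay above 0, from 0.12 to 0.28, and 6 of 7 alpha genes did. Psma4 was the exception at -0.27 (SE 0.15), and it was also lowest of the alpha genes in Nampt+ samples against controls, at -0.37 (SE 0.18, unadjusted p = 0.0821, edgeR). Psma4 had 18.9, 14.2 and 24.7 FPKM in controls, 16.7, 15.5, 14.1 and 17.4 in Nampt++ and 19.6, 8.48, 14.97 and 15.3 in Nampt+ samples, and these groups overlapped on FPKM. On TMM-scaled log2 CPM, Nampt++ samples lay wholly below controls for Psma4 (1 member, and 1.36% of all genes) and wholly above for Psma2, Psma3, Psmb4 and Pomp (4 members, and 1.2% of all genes). Nampt+ samples lay wholly below controls for Psmc5, Psma7, Psmb3 and Psmg3 on that scale (4 members, and 0.934% of all genes) and wholly above for 0 (0.632%). Against controls, all 14 core genes tested were below 0 in Nampt+ samples, with medians of -0.11 for alpha and -0.07 for beta genes.

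Differences of the 19S genes were of like size. All 6 ATPase genes were below 0 in Nampt+ against Nampt++ samples, from -0.29 (Psmc1) to -0.12 (Psmc4), and above 0 in Nampt++ samples against controls, from 0.03 to 0.33, with no p under 0.05. Psmc1 had 43.9, 64.5 and 68.1 FPKM in controls, 71.9, 53.0, 82.7 and 106 in Nampt++ and 52.5, 41.9, 70.2 and 77.4 in Nampt+ samples, a spread within groups as large as the difference between them. Its log2 fold change in Nampt++ samples against controls, 0.33, was 0.15 without control 1 and 0.64 without control 2. Of 14 non-ATPase genes 11 were below 0 in Nampt+ against Nampt++ samples, with a median of -0.15. Psmd6, a lid subunit, was the one with an unadjusted p under 0.05. It had 19.6, 17.6 and 35.1 FPKM in controls, 27.7, 20.8, 22.2 and 28.5 in Nampt++ and 22.3, 10.95, 21.9 and 22.3 in Nampt+ samples. Its log2 fold change was -0.31 (SE 0.12, unadjusted p = 0.0282, adjusted p = 0.9996, edgeR), with an unadjusted p of 0.0802 with the rat as a replicate block and 0.0922 without the libraries labelled Nampt++ of rat 2 and Nampt+ of rat 4. On log2 CPM its difference was nearly the same in each rat, at -0.27, -0.33, -0.31 and -0.33. Psmd4, a ubiquitin receptor of the cap, was at 0.01 (SE 0.21) in the same comparison, and Psmd9, a chaperone of cap assembly, at 0.19 (SE 0.24) in Nampt+ samples against controls, from 0.03 without control 1 to 0.40 without control 2. The largest non-ATPase difference from controls was that of the low gene Psmd10, -0.56 in Nampt++ samples (SE 0.41).

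Psmb8 (chr20:3990613-3993769) and Psmb9 (chr20:3973420-3978845) flank Tap1, the peptide transporter gene, at 943 and 189 bases, and Psme1 (chr15:34256071-34258947) lies 6609 bases from Psme2 (chr15:34265557-34269851). Psmb10 is at chr19:37909546-37912027. All 5 genes were below 0 in Nampt+ against Nampt++ samples, with a median of -0.28, and 4 of 5 were above 0 in Nampt++ samples against controls, with a median of 0.19. Of the 5, 0 had an unadjusted p under 0.05 in any comparison (edgeR), against 0.87% to 2.28% of all genes, so that few calls were to be found among 5. Without the Nampt++ sample of rat 1 the median was -0.06 in Nampt+ against Nampt++ samples and -0.08 in Nampt++ samples against controls.

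Among these 5 genes, Psmb9 was the one in which that sample stood highest over the others on FPKM as deposited. It had 65.6, 69.1 and 48.1 FPKM in controls, 137, 47.3, 73.2 and 56.2 in Nampt++ and 44.0, 53.6, 66.0 and 69.0 in Nampt+ samples. On FPKM only the Nampt++ sample of rat 1 was high, and the remaining 10 samples lay between 44.0 and 73.2. On TMM-scaled log2 CPM relative to the control mean it was highest at 1.06, with Nampt+ of rat 2 at 0.62 and control 2 at 0.55. The log2 fold change of Psmb9 was -0.28 in Nampt+ against Nampt++ samples (SE 0.35) and 0.07 without Nampt++ of rat 1. Psme2 was highest in that Nampt++ sample of rat 1, at 148 FPKM against 46.8 to 90.01 elsewhere, and so was Psmb10 at 102 against 33.1 to 83.0. On the scaled values Psme2 was 0.80 there and at most 0.21 elsewhere. Irf1, the interferon-induced transcription factor, had 459 FPKM there against 78.4 to 157 elsewhere, and Tap1 had 64.2. The summed FPKM of the 12 neutrophil markers, all found and 10 of them above a mean of 1, was 40489 in that sample, against 3063 to 12901 in the remaining Nampt++, 3839 to 15608 in the Nampt+ and 2227 to 14177 in the control libraries. The 12 interferon-stimulated genes summed to 1577 there, and to 442 to 1473 elsewhere. The part of these in the Psmb9 value was not tested.

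Psmb8 and Psme1 varied less with group. Psmb8 had 58.4, 33.1 and 81.4 FPKM in controls, 73.2, 39.4, 55.1 and 66.3 in Nampt++ and 41.8, 28.8, 70.3 and 63.4 in Nampt+ samples. Psme1 had 264, 177 and 335 FPKM in controls, 266, 240, 208 and 252 in Nampt++ and 239, 132, 304 and 245 in Nampt+ samples. For both genes the Nampt++ samples lay inside the range of controls on FPKM. On TMM-scaled log2 CPM relative to the control mean they did not. Psmb8 reached 0.31 in Nampt++ of rat 1, against -0.35 to 0.23 in controls. Psme1 spanned -0.23 to 0.13 in Nampt++ samples, against -0.14 to 0.08 in controls. The log2 fold changes of both genes were between -0.15 and 0.04 in all comparisons.

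Each inducible subunit was set against the subunit it replaces, as a log2 ratio of FPKM within the sample, which is unaffected by scaling between samples. Psmb8 over Psmb5 was 0.41 ± 0.10 in controls (SD, n = 3), 0.32 ± 0.35 in Nampt++ (n = 4) and 0.32 ± 0.32 in Nampt+ samples (n = 4). Psmb10 over Psmb7 was 0.60 ± 0.41, 0.58 ± 0.46 and 0.53 ± 0.19 in the same order. Psmb9 over Psmb6 was -0.25 ± 0.59, -0.22 ± 0.69 and -0.26 ± 0.32. FPKM of the inducible subunit thus exceeded that of its counterpart on average for Psmb8 and Psmb10 and not for Psmb9, in every group. Reads per FPKM differed between genes. In control 1 Psmb7 had 4675 counts for 37.1 FPKM, and Psmb5 had 2790 counts for 43.0 FPKM. The sign of a mean ratio therefore depends on the gene lengths behind the FPKM, which were not checked. Every difference between groups was smaller than the pooled SD. The direction differed between rats, with Psmb8 over Psmb5 lower at Nampt+ in rat 1 (-0.14 against 0.64) and higher in rat 2 (0.35 against -0.17).

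**Figure D5:**
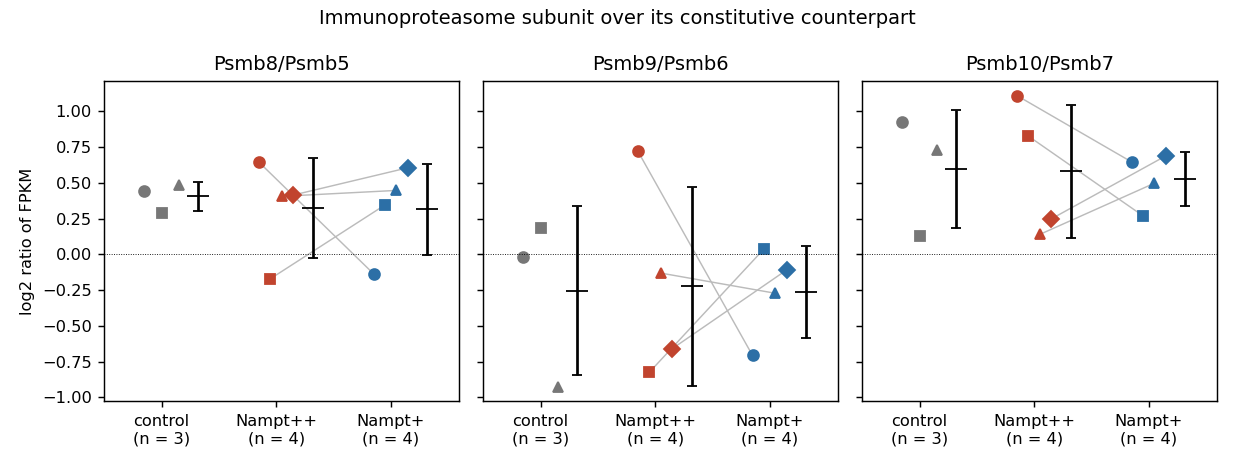
Log2 ratio of FPKM of each inducible subunit to its constitutive counterpart, by group. Points are samples (circle, square, triangle and diamond are replicates 1 to 4) and grey lines join samples of the same rat. Black bars are the mean and SD, and the dotted line marks equal FPKM. The group means lie within 0.09 of each other for every pair, and the lines of the 4 rats cross.

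The activators and the inhibitor had mixed directions. Psme4, the gene of PA200, had 6.82, 9.14 and 8.56 FPKM in controls, 15.8, 7.79, 14.96 and 11.97 in Nampt++ and 11.6, 8.78, 15.3 and 9.35 in Nampt+ samples. Most CIA samples lay above the controls, but 1 of each CIA group lay within their range. Its log2 fold change was 0.54 in Nampt++ (SE 0.29, unadjusted p = 0.103) and 0.47 in Nampt+ samples against controls (SE 0.29, unadjusted p = 0.15), by edgeR, the next highest after Pomp in the first and the highest of all members in the second. Psme3 and Psmf1, the inhibitor PI31, lay between -0.18 and 0.24 in all comparisons. The value of Psmf1 in Nampt+ against Nampt++ samples, 0.24, was 0.02 without Nampt+ of rat 2, 0.56 without the library labelled Nampt++ of rat 2, and 0.73 without that library and the one labelled Nampt+ of rat 4. Psme3 had 38.7, 18.1 and 58.8 FPKM in the 3 controls, and all CIA samples but 1, at 15.8, lay within that range.

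Other genes of the pathway were counted in the same way. A list of symbols for ubiquitin receptors, ubiquitin genes, transcription factors of proteasome genes and the antigen-processing machinery matched 31 genes of the table, Rps27a being listed at 2 positions. Sem1 was matched under that symbol and not again under its older one, and Paaf1 was not found under this name. Of the 31, 0 were past the thresholds and 0 had an unadjusted p under 0.05 in any comparison (edgeR), where all genes gave 0.497% to 0.686% and 0.87% to 2.28%, so few were to be found among 31. Of the 31, 21 lay below 0 in Nampt+ against Nampt++ samples, with a median of -0.08, where 50% of all genes lay below 0. In Nampt++ samples against controls 17 lay above 0 (50.4% of all genes), with a median of 0.04. In Nampt+ samples against controls 18 lay below 0 (50.7% of all genes), with a median of -0.02. Nfe2l1, the transcription factor that raises proteasome genes when the proteasome is impaired, had log2 fold changes of -0.19 (SE 0.13) in Nampt+ against Nampt++ samples and 0.04 (SE 0.16) in Nampt++ samples against controls. Tap1 and Tap2 gave -0.29 in Nampt+ against Nampt++ samples each (SE 0.27 and 0.33), and Irf1 -0.68 (SE 0.49). Nlrc5, an activator of MHC class I genes, gave 0.16 (SE 0.28).

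The core genes also varied together from sample to sample. Over the 11 samples the median rank correlation (Spearman) between pairs of constitutive beta genes was 0.65, between alpha genes 0.48, between ATPase genes 0.28, between non-ATPase genes 0.07, between immunoproteasome genes 0.27 and between assembly factors -0.01, with 0.00 between all genes. Pomp had a median of 0.46 with the 20S and 19S genes, LOC100911238 0.06 and Psmg2 -0.43. These values describe genes that share libraries, depth and cell make-up, and no test was made of them. Other genes the table describes as subunit-like or as a pseudogene carried few reads, with at most 209 counts in a sample for the Psmb6-like LOC100360846, 147 for the Psma3-like LOC100361067 and 107 for a Psme1 pseudogene.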

How the data were processed

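RNA from WBCs of 11 samples was sequenced by the authors. The submitters' processing notes name cutadapt 1.9, HISAT2 2.0.4 and StringTie 1.3.4, and the genome build and the program that counted reads are not given in the sources used here. The counts are whole numbers of reads per gene as the authors deposited them, without normalization. The FPKM values are also those the authors deposited, scaled by gene length and sample total, with 0.0001 standing for 0. The GO and KEGG columns of the table were not used. The members, gene lists and tests were chosen with earlier results of these data known.

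For each pair of groups, genes whose FPKM averaged 1 or more across the libraries of both were tested with edgeR 4.0.16 (quasi-likelihood test, TMM scaling) in R 4.3.3, and p-values were adjusted over all tested genes by the Benjamini-Hochberg method. A gene was past the thresholds when group mean FPKMs differed more than 2-fold (ratio above 2 or below 0.5) with unadjusted p below 0.05. DESeq2 1.42.0, limma 3.58.1 on log2(FPKM + 1) or log2(FPKM + 0.1), other filters and scalings, a joint fit of the 3 groups, the replicate block, Pomp summed with its copy and leaving out samples were alternatives. The one without both Nampt++ of rat 2 and Nampt+ of rat 4 was added after the data were seen, as were overlap on TMM-scaled values and exchange of labels within rats. The test was tried on simulated data with changes of known size. Exact permutation tests ran through all relabellings of the samples, and the Wilson intervals came from SciPy 1.17.1.

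The text names Pomp, its copy, the immunoproteasome genes and their counterparts, members past the thresholds, the 3 highest and 3 lowest log2 fold changes per comparison among members with a mean FPKM of at least 10, the extremes of each role and members at 0. Others, such as Psmb3 and Psmg3, were singled out after their values were seen. The methods say that Nampt++ and Nampt+ samples came from identical rats, and the replicate number was taken as the rat, which the labels do not state. The correlations of the deviations of same-numbered samples from their group means were -0.18, -0.18, 0.17 and 0.13. Controls share only numbers. Within groups the chi-square per degree of freedom was at least 376, so no library was a repeat of another of its group. Libraries of different groups were not compared in this way. The number of rats rather than depth limits the precision.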

Additional observations from a re-analysis of the deposited data

Results flagged for a closer look

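Dixon's test for a value far from the other 3 of its group was run on log2(FPKM + 1). Of 60 groups of 4 samples tested, 4 held such a value, and chance alone gives one in about 1 in 20 groups. All 4 were low values of the Nampt+ sample of rat 2, the sample with the highest haemoglobin share. Psmb10 had 33.1 FPKM there, against 66.7 to 73.8 in the other Nampt+ samples. Psmb7, the trypsin-like catalytic subunit, had 27.5 FPKM against 43.1 to 47.3. Psmd6 had 10.95 FPKM against 21.9 to 22.3. Psme3 had 15.8 FPKM against 38.2 to 43.3. The values printed here are FPKM as deposited, before the log step of the test, and on plain FPKM the gaps to the other 3 weigh less. On TMM-scaled log2 CPM relative to the control mean, Psmb7 in that sample (0.14) was the highest of its group (-0.12 to -0.08 in the others), Psmb10 (-0.18) and Psmd6 (-0.28) lay within their group's range, and Psme3 (-0.34) was still the lowest (-0.01 to 0.11). The part of haemoglobin RNA in these values was not tested.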

How the results depend on the processing

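The medians of the members' log2 fold changes kept their direction under every alternative run in all 3 comparisons. For Nampt+ against Nampt++ samples the median was -0.25 and -0.27 with limma on log2(FPKM + 1) and log2(FPKM + 0.1), where the median of all genes was -0.07 and -0.09. The single call in that comparison, Pomp, rested on a ratio next to the threshold. The count past the thresholds was 0 with upper quartile scaling (Pomp -0.87), with haemoglobin genes left out (-0.91), with the fold taken from the fitted change (-0.89) and with Pomp and its copy summed (-0.30), and it ranged from 0 to 1 when samples were left out, with Pomp between -1.05 and -0.63. It was 0 without Nampt++ of rat 1, Nampt++ of rat 4, Nampt+ of rat 2 or Nampt+ of rat 4, in all of which Pomp's unadjusted p stayed under 0.05, from 0.00436 to 0.0183 (edgeR). In Nampt++ samples against controls the count was 0 with Pomp and its copy summed (0.18), and 0 to 1 when samples were left out (0 without control 1, control 2 or Nampt++ of rat 4). With 1 rat left out, 14 to 23 members were lower in all remaining rats, with 6.06% to 15.7% of all genes, since fewer rats had to share the direction. Of all genes, 72 were past the thresholds in Nampt+ against Nampt++ samples, 295 with no filter on FPKM and 19 at a mean FPKM of at least 10.

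With the rat as a replicate block, Pomp gave -0.94 in Nampt+ against Nampt++ samples (unadjusted p = 0.015, edgeR). There 1 member and 56 of all 11219 genes passed the thresholds, and the members' median was -0.18. Between CIA rats and controls the numbers pair nothing. The block left 1 member and 46 of 11219 genes past the thresholds in Nampt++ samples against controls. In Nampt+ samples against controls it left 0 members and 60 of 11269 genes.

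Values near 0 changed sign. For Nampt+ against Nampt++ samples LOC100911238 gave -0.026 with no filter on FPKM, -0.018 without haemoglobin genes, -0.0057 with DESeq2, -0.083 and -0.084 with limma, and -0.078 to 0.091 when samples were left out. Psmd4 gave -0.018 with no filter, -0.0099 without haemoglobin genes, -0.097 and -0.099 with limma, -0.0088 with the replicate block and -0.19 to 0.19 when samples were left out. Psme1 gave 0.013 at a mean FPKM of at least 10 and -0.11 to 0.078 when samples were left out. Psme3 ranged from -0.018 to 0.20 and Psmb9 from -0.54 to 0.072 when samples were left out. In Nampt++ samples against controls Psme3 ranged from -0.41 to 0.038. Pomp summed with its copy gave -0.13 in Nampt+ samples against controls. The cause of these changes was not tested.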
